A study of Mus musculus with 9 samples.

Results

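The genes described here build the mitotic spindle, attach chromosomes to it, condense and separate the chromosomes and cut the cell apart at the end of division. They are 46 named genes, taken by symbol from a table of 23282 gene rows, and each symbol was found on 1 row. The measurements come from RAW264.7, a single established mouse macrophage line of BALB/c origin that turns into osteoclasts, the bone-resorbing cells, when it is given the cytokine RANKL. There were 9 RNA sequencing libraries in 3 groups of 3. The RANKL alone group was the negative control, the surface proteins group received RANKL together with proteins extracted from the surface of the bacterium Propionibacterium freudenreichii MJ2, and the heat-killed MJ2 group received the killed bacterium. The labels give passage 30, RANKL at 50 ng/mL, surface proteins at 10 µg/mL, heat-killed MJ2 at 10000000 cells/mL and 4 days of treatment, and they do not state for each heat-killed MJ2 library that RANKL was present. Whether the replicates were separate cultures is not given in the sources used here, so p-values measure the spread between these libraries, which may be technical.

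Cells enter mitosis when cyclin B with Cdk1, Plk1 and the Aurora kinases become active. Condensin then compacts the chromosomes, kinetochores built on the centromeres bind spindle microtubules, and kinesin motors move chromosomes and spindle poles. The spindle checkpoint holds back the anaphase-promoting complex until each kinetochore is attached, after which cohesin is cut, the sisters part and a contractile ring closes between them. Most of these genes are transcribed mainly in G2 and mitosis, so their mRNA is widely used as a sign of dividing cells, and osteoclast formation ends with precursors that leave the cell cycle and fuse.

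The level of a gene is given as adjusted reads, which are 2 raised to the deposited log2 value minus 1. Each read marks the 3′ end of an mRNA, so levels were not divided by gene length. Library totals lay between 5930926 and 6503682 adjusted reads. A gene was tested in a comparison if 3 or more of its 6 libraries held 10 adjusted reads or more, and it passed at an adjusted p under 0.05 in limma with a fold change of at least 2. The comparison of surface proteins with RANKL alone tested 10874 genes, and all 46 mitosis genes were among the genes tested in each of the 3 comparisons. Of the 8 macrophage markers all reached 10 adjusted reads, and none of the 3 B cell markers and none of the 4 epithelial markers did.

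The 46 genes were much lower in cells given surface proteins than in cells given RANKL alone. Their summed level was 22961, 18892 and 20176 adjusted reads in the RANKL alone libraries and 8549, 3482 and 5395 in the surface proteins libraries. The mean of their log2 values was 8.25 with RANKL alone (SD 0.14, n = 3) and fell to 6.20 in the surface proteins libraries (SD 0.67, n = 3). In limma 40 of the 46 passed and were lower, none passed and was higher, and all 46 had a log2 fold change below 0. Over all tested genes 7.32% passed and were lower and 10.2% passed and were higher. The median log2 fold change of the 46 was -2.08, which leaves 23.6% of the RANKL alone level, against -0.01 over all tested genes. For 44 of the 46 every surface proteins library lay below every RANKL alone library, a pattern that 23.7% of the tested genes showed. An exact permutation test of 3 libraries against 3 cannot give a two-sided p below 0.1, the value those 44 genes reached. Without RANKL alone replicate 1 the number that passed was 24, and all 46 log2 fold changes stayed below 0. The 16 that then missed the threshold were Aurka, Birc5, Cdc20, Ube2c, Cenpe, Cenph, Ndc80, Kif4, Kif14, Kif15, Kif22, Prc1, Ect2, Racgap1, Smc2 and Smc4. Among the fits that tested a gene, no other setting took the call from a gene outside these 16. Nuf2, Kif4 and Kif18a, which passed, had a surface proteins library under 10 adjusted reads and were not tested where every library had to hold 10. In bulk RNA, fewer cells in division and less of these mRNAs in each cell cannot be told apart.

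**Figure D1:**
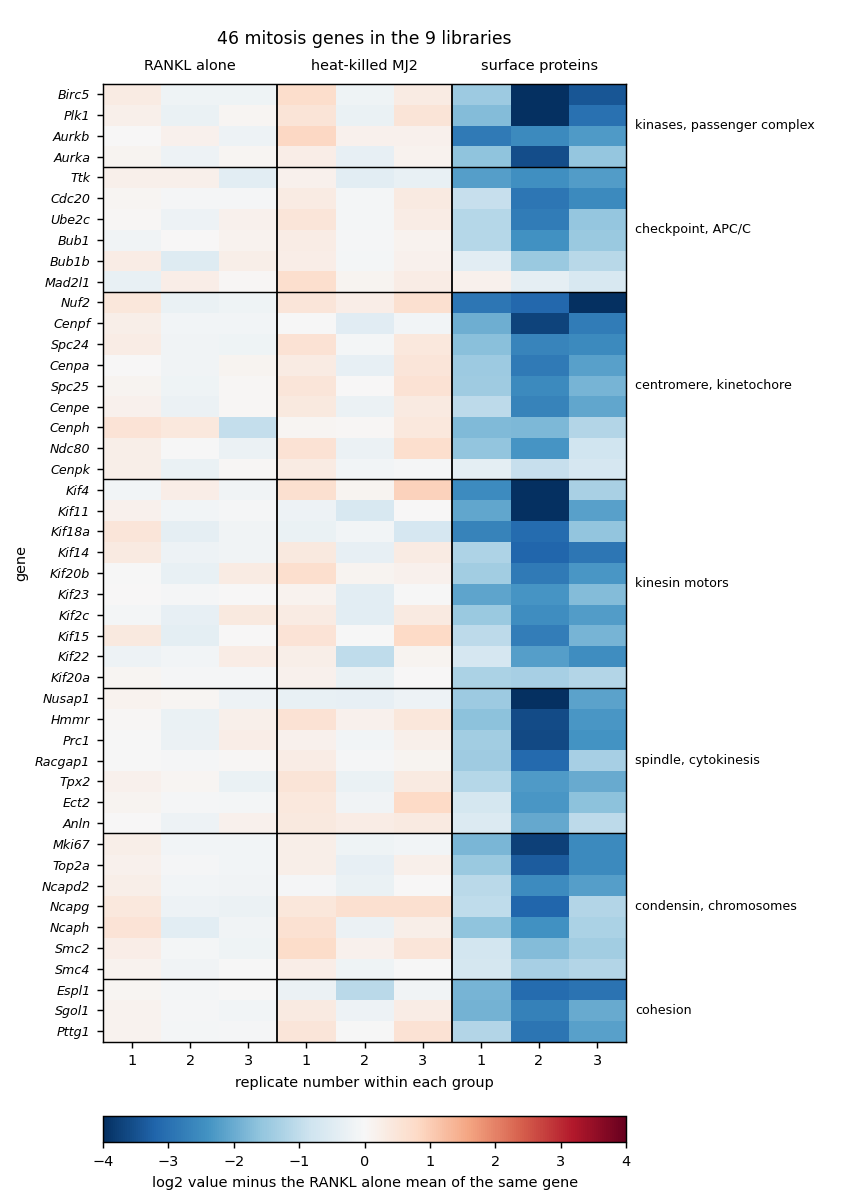
Log2 value of each of the 46 genes (rows, by role group) in the 9 libraries (columns), minus the mean of that gene in the 3 RANKL alone libraries, with the colour scale ending at -4 and 4. The 3 surface proteins columns are blue for nearly every gene and darkest in replicate 2, while the heat-killed MJ2 columns stay near the colour of RANKL alone.

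Heat-killed MJ2 gave no such drop. The summed level of the 46 genes was 25831, 18233 and 23961 adjusted reads, a range that takes in all 3 RANKL alone libraries. None of the 46 passed in either direction, 35 had a log2 fold change above 0 and 11 below, and the median was 0.17, against -0.00 over all tested genes. In that comparison 0.897% of the 10814 tested genes passed and were lower and 3.37% passed and were higher. At an unadjusted p under 0.05 in limma, 1 of the 46 (Ncapg) differed, where 22.6% of the tested genes did. In 3 genes (Aurkb, Anln and Ncapg) every heat-killed MJ2 library lay above every RANKL alone library, where 15.4% of all tested genes did, and in Espl1 every one lay below, as in 14.7% of the tested genes. The 95% interval of the log2 fold change stayed within 1 of 0 for 37 of the 46 genes, so that a 2-fold change either way lay outside it, and reached past 1 for the other 9. It stayed within 1 of 0 for 7005 of the 10814 tested genes. Both comparisons use the same RANKL alone libraries.

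**Figure D2:**
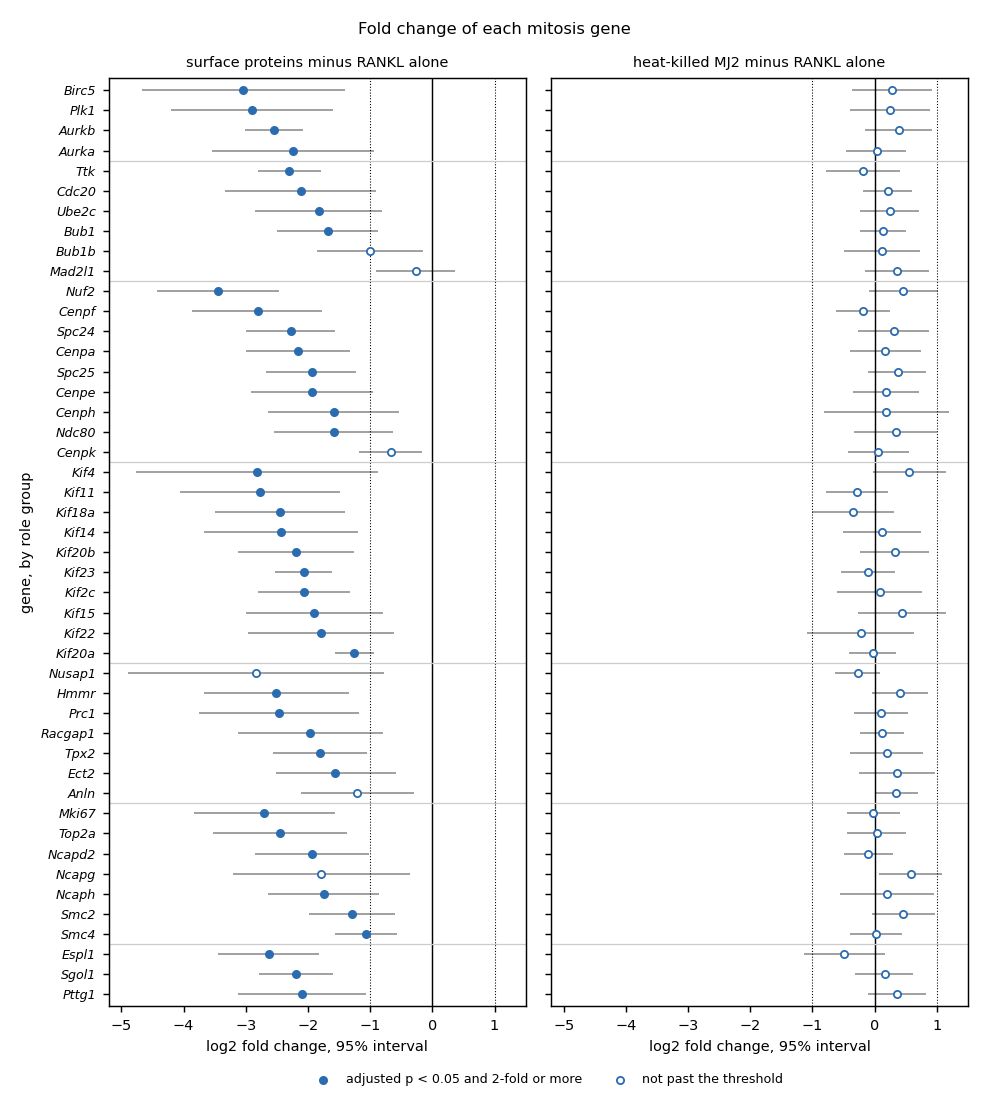
Log2 fold change of each of the 46 genes with its 95% interval from limma, for surface proteins (left) and heat-killed MJ2 (right) against RANKL alone. Filled points passed the threshold. On the left 40 points are filled and all lie below 0, from -3.44 to -0.27. On the right none is filled and the points lie between -0.49 and 0.58.

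The direct comparison of the treatments used the same surface proteins libraries and set them against the heat-killed MJ2 ones. With surface proteins 42 of the 46 genes passed and were lower than with heat-killed MJ2, none passed and was higher, and the median log2 fold change was -2.21. Among the 10916 genes tested there, 4.97% passed and were lower, 5.08% passed and were higher, and 20.1% had every surface proteins library below every heat-killed MJ2 library, as 44 of the 46 did. The number that passed fell to 8 without heat-killed MJ2 replicate 1, to 10 without its replicate 3 and to 17 without surface proteins replicate 3. All 46 log2 fold changes were below 0 in each of these fits. The genes that missed the threshold were Mad2l1, Cenpk, Kif22 and Nusap1, and 39 genes passed in both comparisons that involve surface proteins.

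Among the 500 tested genes with the lowest log2 fold change against RANKL alone, 39 were mitosis genes, and 9 stood among the lowest 100. Against heat-killed MJ2 the numbers were 41 of 500 and 13 of 100, and none of the 46 stood among the lowest 500 in the comparison of heat-killed MJ2 with RANKL alone. The mean log2 levels of the 46 genes over the 9 libraries lay between 5.42 and 10.56, where the median tested gene had 7.42.

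**Figure D3:**
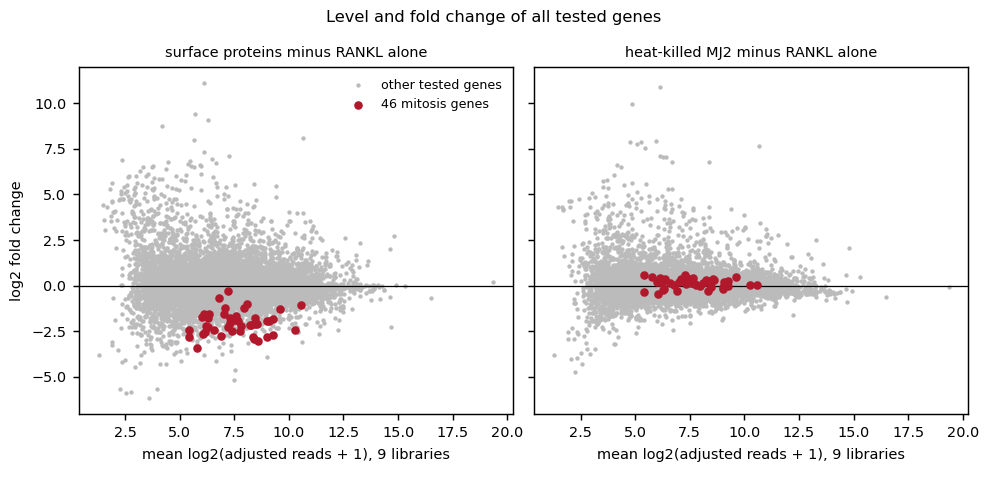
Mean log2(adjusted reads + 1) over the 9 libraries against the log2 fold change of each tested gene, for surface proteins (left) and heat-killed MJ2 (right) against RANKL alone. The 46 mitosis genes (red) lie mostly in the lower part of the cloud on the left, from -3.44 to -0.27 with a median of -2.08. On the right they lie around its centre line, with a median of 0.17.

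The promoters of these genes were read next, because genes that move together in the cell cycle often carry the same short elements near their start. The element TTTGAA is the best known form of the cell cycle homology region, which the DREAM complex binds in resting cells and the MuvB complex with B-Myb and FoxM1 in G2. A second form is TTCGAA. The CCAAT box is bound by NF-Y and usually stands upstream of it, and TTTNNCGC is an E2F-like letter pattern. RefSeq windows of GRCm38.p6, 250 bases before to 50 after a start of the gene, were found for 41 of the 46 genes and searched on both strands, 1 window a gene (the first listed where a gene had several, as 3 did). The start used was the outer end of the gene in the RefSeq gene table for 19 of the 41 and lay inside the gene for the other 22, by more than 300 bases in 7 of them. Aurkb, Spc24, Kif20a, Tpx2 and Smc4 had no entry. The stretch from 150 bases before to 50 after the start used is printed 5′ to 3′ on the coding strand for 5 genes, and for Aurka this start lies 316 bases inside the gene as the gene table gives it. They are the mitotic kinases Plk1 and Aurka, Cdc20 and Ube2c of the anaphase-promoting complex, and the kinetochore motor Cenpe, which lacks the first element. Capitals mark the matches, and TTCAAA and ATTGG are TTTGAA and CCAAT read from the other strand. The windows are chr7:122159285-122159484 (plus strand) for Plk1, chr2:172370521-172370720 (minus strand) for Aurka, chr4:118437294-118437493 (minus strand) for Cdc20, chr2:164769779-164769978 (plus strand) for Ube2c and chr3:135212413-135212612 (plus strand) for Cenpe.
Plk1: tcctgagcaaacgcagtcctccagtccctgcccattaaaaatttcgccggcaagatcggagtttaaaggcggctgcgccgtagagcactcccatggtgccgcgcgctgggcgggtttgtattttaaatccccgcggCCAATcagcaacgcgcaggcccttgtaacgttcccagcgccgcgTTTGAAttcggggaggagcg
Aurka: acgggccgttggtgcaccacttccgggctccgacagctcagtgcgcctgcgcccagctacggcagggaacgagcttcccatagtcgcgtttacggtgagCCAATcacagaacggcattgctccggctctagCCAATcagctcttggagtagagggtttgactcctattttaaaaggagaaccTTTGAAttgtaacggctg
Cdc20: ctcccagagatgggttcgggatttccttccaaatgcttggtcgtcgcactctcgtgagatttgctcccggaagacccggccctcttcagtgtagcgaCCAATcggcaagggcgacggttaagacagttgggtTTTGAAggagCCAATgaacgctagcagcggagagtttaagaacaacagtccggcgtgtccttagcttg
Ube2c: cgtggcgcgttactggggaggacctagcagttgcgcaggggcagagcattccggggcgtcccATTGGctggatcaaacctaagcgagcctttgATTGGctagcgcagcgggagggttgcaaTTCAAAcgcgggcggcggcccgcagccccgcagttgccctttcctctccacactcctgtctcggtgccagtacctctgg
Cenpe: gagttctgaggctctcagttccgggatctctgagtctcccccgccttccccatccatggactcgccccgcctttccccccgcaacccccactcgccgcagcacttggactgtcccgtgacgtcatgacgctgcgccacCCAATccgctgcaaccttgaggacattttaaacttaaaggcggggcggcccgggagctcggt

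In 4 of the 5 windows TTTGAA stands close to the start used with a CCAAT box a short way upstream, and the Cdc20 window has a further CCAAT between its TTTGAA and the start. The window of Cenpe holds CCAAT alone. Among the 41 windows of 300 bases, 29 (70.7%) held TTTGAA, where 18.1% of the 27025 windows of the whole table and 12.2% of those of tested genes did. TTCGAA was found in 4 of the 41 (9.76%) and in 1.57% of all windows. CCAAT was found in 29 (70.7%) and in 37.9%, and TTTNNCGC in 6 (14.6%), in 5.27% of all windows and in 9.32% of those of tested genes. Either form of the homology region stood together with CCAAT in 26 of the 41 (63.4%), where 7.7% of all windows had that pair. No match of TTTNNCGC overlapped a TTTGAA. Among 617 other genes that passed and were lower with surface proteins, 16.9% had TTTGAA, 45.1% had CCAAT and 14.9% had TTTNNCGC, and these 617 were chosen by the same comparison. The matches describe letters in the windows and are not measured binding sites.

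**Figure D4:**
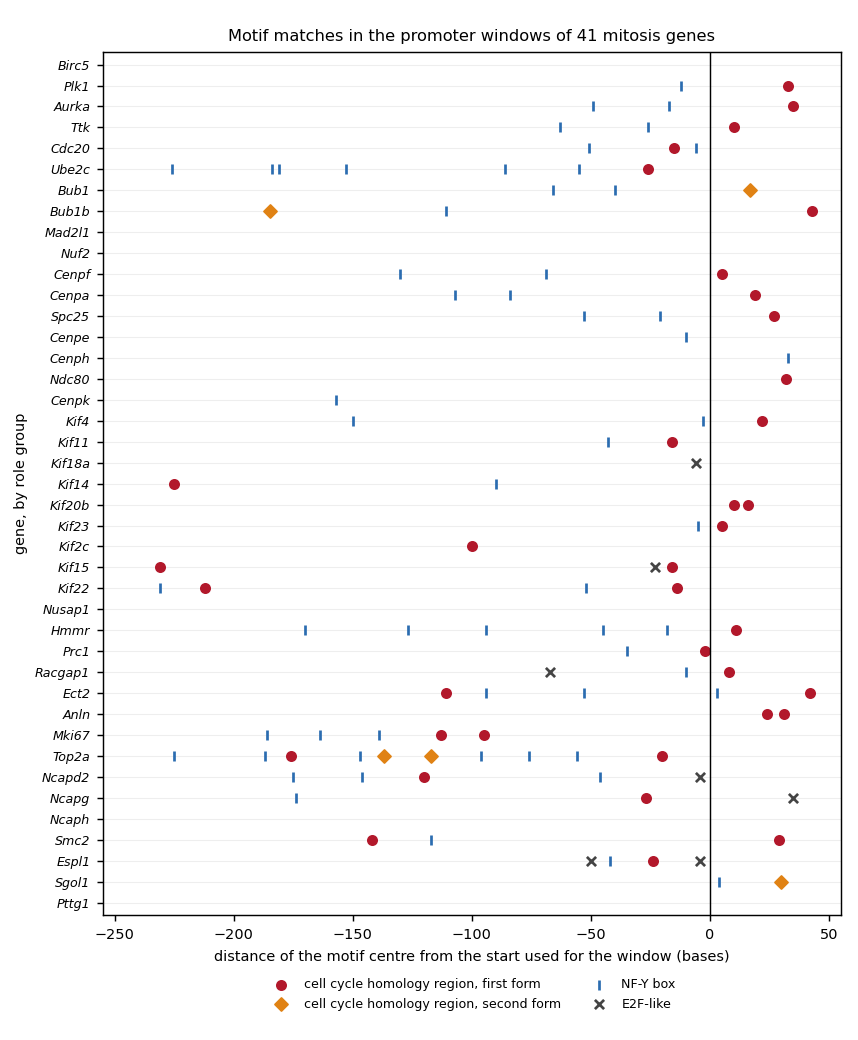
Position of each motif match (symbols) in the promoter windows of 41 of the 46 genes, as the distance of its centre from the start used for the window in bases. Of 37 matches to the first form of the cell cycle homology region, TTTGAA, 27 (73%) lie no more than 50 bases before the start or after it, where 25.7% of its matches in all windows do, and the NF-Y boxes lie mostly further upstream, with a median of -72 bases. Birc5, Mad2l1, Nuf2, Nusap1, Ncaph and Pttg1 have no match.

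The kinases that drive mitosis fell together. Birc5 (survivin, a targeting subunit of the chromosomal passenger complex) had 927, 643 and 657 adjusted reads with RANKL alone, 1183, 648 and 916 with heat-killed MJ2 and 263, 38.3 and 67.1 with surface proteins. Aurkb, the kinase of the same complex, had 118, 130 and 102, then 207, 133 and 131, then 15.6, 19.1 and 23.2. For both genes the 3 surface proteins libraries lay below the other 6. The log2 fold change against RANKL alone was -3.04 (SE 0.68, adjusted p = 0.02 in limma) for Birc5 and -2.54 (SE 0.19, adjusted p = 7.2e-04) for Aurkb, whose libraries varied far less. Plk1, which sets up spindle poles and triggers mitotic entry, had a log2 fold change of -2.90 (adjusted p = 0.011), and Aurka, which matures the centrosomes, had -2.24 (adjusted p = 0.025). Birc5 missed the threshold without RANKL alone replicate 1 (adjusted p = 0.064 in limma) or 3 (0.054), without surface proteins replicate 3 (0.062) and with no filter on low values (0.052). With 1 library left out its log2 fold change lay between -3.82 and -2.45, and that of Aurka, which missed it without any one RANKL alone library, between -2.58 and -1.59. Their log2 fold changes with heat-killed MJ2 were 0.25 for Plk1, 0.03 for Aurka, 0.39 for Aurkb and 0.28 for Birc5, and none passed.

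In the spindle checkpoint and its target the drop was uneven. Ube2c, the ubiquitin-conjugating enzyme that starts chains for the anaphase-promoting complex, had 901, 761 and 992 adjusted reads with RANKL alone, 1227, 840 and 1087 with heat-killed MJ2 and 398, 127 and 299 with surface proteins. Cdc20, the activator that the checkpoint restrains, had 577, 530 and 528, then 678, 521 and 704, then 290, 72.9 and 92.4. Both lists of surface proteins values lay below the other 6 libraries. Cdc20, at a log2 fold change of -2.11, passed with all 6 libraries and, with 1 left out (-2.72 to -1.73), passed only without surface proteins replicate 1. Ube2c missed the threshold without RANKL alone replicate 1 (adjusted p = 0.065 in limma) or 3 (0.068). With no filter both missed it (0.055 for Ube2c and 0.06 for Cdc20). Ttk, the kinase that starts checkpoint signalling, had 162, 159 and 105 adjusted reads with RANKL alone and 29.3, 24.9 and 28.7 in the surface proteins libraries. At a log2 fold change of -2.30 (SE 0.21, adjusted p = 0.0013 in limma) it fell most in this group. Bub1, the checkpoint kinase at kinetochores, passed at -1.68. Bub1b (BubR1), at 50.1% of its RANKL alone level, did not pass (adjusted p = 0.078), but did without surface proteins replicate 1 (log2 fold change -1.30, adjusted p = 0.04 in limma). Mad2l1 (Mad2), whose protein captures Cdc20, had 117, 173 and 149 adjusted reads with RANKL alone, 230, 158 and 178 with heat-killed MJ2 and 163, 113 and 92.3 with surface proteins. These 3 groups overlapped, and the log2 fold change of Mad2l1 was -0.27 (95% interval -0.90 to 0.36, adjusted p = 0.47), the smallest of all 46.

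Of 9 centromere and kinetochore genes 8 passed, with a median log2 fold change of -1.94. Nuf2, a subunit of the Ndc80 complex that grips the microtubule, changed most of all 46 genes. It had 147, 89.5 and 95.9 adjusted reads with RANKL alone, 151, 130 and 170 with heat-killed MJ2 and 13.7, 11.4 and 4.54 with surface proteins, which is a log2 fold change of -3.44 (SE 0.41, adjusted p = 0.0027 in limma) against RANKL alone and -3.90 (SE 0.38, adjusted p = 0.0059) against heat-killed MJ2. The other subunits of that complex fell less, with log2 fold changes against RANKL alone of -2.28 for Spc24, -1.94 for Spc25 and -1.58 for Ndc80, and the differences between the subunits were not tested. With 1 library left out, Ndc80 passed only without surface proteins replicate 3. It missed the threshold with no filter (adjusted p = 0.067 in limma) and with the replicate number as a block in the model (0.055). Cenpe, the motor that carries chromosomes to the spindle equator, had the highest mean log2 value of the group, with 918, 692 and 846 adjusted reads with RANKL alone, 1071, 700 and 1042 with heat-killed MJ2 and 391, 127 and 193 with surface proteins. The surface proteins values of both genes lay below all others. Cenpe missed the threshold without RANKL alone replicate 1 (adjusted p = 0.055 in limma) or 3 (0.053) or surface proteins replicate 3 (0.053). Cenpf, a large kinetochore protein of G2 and mitosis, had -2.81, and Cenpa, the histone H3 variant that marks centromeres, had -2.16. Cenph, of the inner kinetochore, passed at -1.58, but with 1 library left out only without RANKL alone replicate 3, and it missed the threshold with no filter and with the replicate number as a block in the model (adjusted p = 0.085 in limma in both). Cenpk, its partner there, had -0.67 (adjusted p = 0.056) and did not pass.

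All 10 kinesin motors passed against RANKL alone. Kif23, a motor of the central spindle that cytokinesis needs, had 595, 575 and 595 adjusted reads with RANKL alone, 647, 434 and 584 with heat-killed MJ2 and 134, 114 and 176 with surface proteins, and its log2 fold change of -2.07 had an SE of 0.19 (adjusted p = 0.0012 in limma). Kif4, a chromosome-bound motor, had 65.6, 85.1 and 65.3, then 111, 77.4 and 135, then 11.7, 1.86 and 28.7. All surface proteins values of both genes lay below the rest, but the 3 values of Kif4 spread widely and 1 of them is under 3 reads, and its log2 fold change was -2.82 (SE 0.80, adjusted p = 0.043). With 1 library left out it lay between -3.59 and -1.90, and Kif4 missed the threshold without any one RANKL alone library or surface proteins replicate 1, with quantile normalization (adjusted p = 0.061 in limma), 0.1 in place of 1 added before the log (0.06), no filter (0.096) and the replicate block (0.066). Kif11 (Eg5), which pushes the spindle poles apart, had -2.77 (-3.12 to -2.12 with 1 library left out), and Kif18a, which shortens microtubule plus ends, had -2.45. Kif14 and Kif20b, both motors of cytokinesis, had -2.43 (-3.03 to -2.07 with 1 library left out) and -2.19, Kif2c, a microtubule depolymerase, -2.06, Kif15, a helper of Kif11, -1.90, and Kif22, a chromosome-arm motor, -1.79. With 1 library left out, Kif22 passed only without surface proteins replicate 1. It missed the threshold with no filter (adjusted p = 0.083 in limma) and with the replicate block (0.067). Kif15 missed it without RANKL alone replicate 1 or 3 or surface proteins replicate 3 and with no filter (0.06). Kif14 missed it without RANKL alone replicate 1 or surface proteins replicate 2 or 3. Against heat-killed MJ2 9 of the 10 passed, and Kif22 (adjusted p = 0.1) did not. With the replicate block Kif18a missed the threshold there too (adjusted p = 0.057 in limma). GENCODE M21 names a pseudogene copy of Kif4 and one of Kif22. How reads that fit several places were counted is not given in the sources used here, which leaves both values uncertain.

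The value of Kif20a, a motor of late cytokinesis, could not be taken as its own. It had 351, 323 and 325 adjusted reads with RANKL alone, 372, 278 and 334 with heat-killed MJ2 and 137, 133 and 146 with surface proteins. Cdc23, a subunit of the anaphase-promoting complex that lies tail to tail with it on the other strand, had 327, 326 and 321, then 371, 280 and 328, then 138, 141 and 148. The log2 values of these neighbours, which overlap by 2327 bases in GENCODE M21, differed by no more than 0.10 in any library, and no other of the 46 genes had a row of the table within 0.15 in all 9. Of 409 such pairs of tested genes that overlap by at least 500 bases, 19, this pair included, lay within 0.15 in all 9 libraries. Which gene the reads came from was not tested, and strand use in the counting is not given in the sources used here. The log2 fold changes were -1.26 for Kif20a and -1.18 for Cdc23, and without Kif20a 39 of 45 genes passed. The last 500 bases of Cdc20, Ube2c, Prc1 and Ncapg also lie under a gene of the other strand. The log2 fold change against RANKL alone was -0.47 for Elovl1 beside -2.11 for Cdc20, -1.96 for Rccd1 beside -2.47 for Prc1 and 0.17 for Lcorl beside -1.79 for Ncapg, and Tnnc2, beside Ube2c, stayed under 10 adjusted reads.

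Of 7 genes of spindle assembly and cytokinesis, 5 passed. Tpx2, which activates Aurora A on the spindle, had 576, 542 and 430 adjusted reads with RANKL alone, 727, 428 and 649 with heat-killed MJ2 and 231, 106 and 126 with surface proteins. Hmmr, a spindle pole protein, had 281, 227 and 315, then 408, 310 and 375, then 87, 22 and 53.9. The surface proteins libraries were the lowest 3 for both, with log2 fold changes of -1.80 (adjusted p = 0.0089 in limma) and -2.51 (adjusted p = 0.012). Nusap1, a microtubule bundling protein, had 740, 692 and 569 adjusted reads with RANKL alone, 537, 529 and 579 with heat-killed MJ2 and 239, 21.1 and 150 with surface proteins. At -2.84 its log2 fold change was the largest drop of the group, but with an SE of 0.85 and an adjusted p of 0.05 (rounded) it did not pass, while without surface proteins replicate 2 it passed at -1.80 (adjusted p = 0.014 in limma) and without surface proteins replicate 1 at -3.52 (0.034). Nusap1 also passed under the other scalings, with 2 added before the log, with 10 adjusted reads asked of every library and with all 9 libraries in the fit (adjusted p = 0.02 to 0.05). Prc1, which bundles the central spindle, had -2.47, Racgap1, of the centralspindlin complex, -1.96, and Ect2, which activates RhoA at the cleavage furrow, -1.56, and all 3 passed. With 1 library left out, Ect2 passed only without surface proteins replicate 1, and it missed the threshold with no filter (adjusted p = 0.071 in limma). Racgap1 missed it without any one RANKL alone library and with no filter (0.066). Prc1 missed it without RANKL alone replicate 1 (0.053) or 3 (0.058) or surface proteins replicate 3. Anln (anillin), a scaffold of the contractile ring, had -1.21 (adjusted p = 0.056) and passed without surface proteins replicate 1 (-1.54, adjusted p = 0.029 in limma). It also passed with 10 adjusted reads asked of every library (0.036), all 9 libraries in the fit (0.023), the replicate block (0.049) and limma's trend and robust options (0.0089).

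Condensin and chromosome genes held the most abundant members. Smc4, a core subunit of condensin, had 2131, 1727 and 1911 adjusted reads with RANKL alone, 2324, 1695 and 1878 with heat-killed MJ2 and 1175, 763 and 854 with surface proteins, which is a log2 fold change of -1.07 (SE 0.20, adjusted p = 0.012 in limma). Mki67, the Ki-67 protein that coats mitotic chromosomes and is used to count dividing cells, had 1340, 1051 and 1058, then 1337, 1013 and 1051, then 322, 85.3 and 193, which is -2.70 (SE 0.47, adjusted p = 0.0089). For both the surface proteins libraries were the lowest 3. Ncapg, a subunit of condensin I, had 277, 180 and 177 adjusted reads with RANKL alone, 284, 322 and 322 with heat-killed MJ2 and 102, 22 and 91.2 with surface proteins. It was the gene with the highest log2 fold change with heat-killed MJ2 (0.58, SE 0.21, unadjusted p = 0.031, adjusted p = 0.17), while for surface proteins it missed the threshold at -1.79 (adjusted p = 0.066), although its groups did not overlap. With 1 library left out it lay between -2.17 and -1.09, and it passed at -1.09 (adjusted p = 0.044 in limma) without surface proteins replicate 2. Ncapg also passed with 10 adjusted reads asked of every library (0.041), all 9 libraries in the fit (0.029) and limma's trend and robust options (0.035). Top2a, the topoisomerase that untangles sister DNA, had -2.45, Ncapd2 and Ncaph, also of condensin I, -1.94 and -1.75, and Smc2, the partner of Smc4, -1.29, and all passed. Smc2 missed the threshold without RANKL alone replicate 1 (adjusted p = 0.063 in limma) or surface proteins replicate 2 (0.053) or 3 (0.06). Smc4 missed it without RANKL alone replicate 1 (log2 fold change -0.99) or surface proteins replicate 2 (-0.93).

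The 3 genes of sister cohesion and its release all passed. Pttg1 (securin), the inhibitor that the anaphase-promoting complex destroys, had 607, 530 and 538 adjusted reads with RANKL alone, 784, 556 and 838 with heat-killed MJ2 and 246, 71.9 and 123 with surface proteins. Espl1 (separase), the protease that securin holds, had 145, 129 and 136, then 117, 63.8 and 124, then 37.2, 15.3 and 16.6. In both the surface proteins libraries were the lowest 3, and in Espl1 the heat-killed MJ2 libraries lay between the other groups, at a log2 fold change of -0.49 (SE 0.27, adjusted p = 0.34 in limma) against RANKL alone. Against RANKL alone surface proteins gave -2.10 for Pttg1, -2.63 for Espl1 and -2.19 for Sgol1 (shugoshin), which shields centromeric cohesin.

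The 46 genes moved together from library to library. In the surface proteins group replicate 2 was the lowest library for 42 of the 46 and replicate 1 the highest for 36, while among the other tested genes replicate 2 was the lowest for 32.1%. Replicate 2 was also the lowest for 43 of the 46 with heat-killed MJ2 and for 28 with RANKL alone, against 35.9% and 33.6% of the other tested genes. Replicate 1 was the highest for 28 with heat-killed MJ2 and for 32 with RANKL alone, against 30.2% and 32.9% of the other tested genes. The median SD of the log2 values was 0.77 for the 46 with surface proteins, against 0.24 for all tested genes in the same libraries, 0.22 for the 46 with RANKL alone and 0.30 with heat-killed MJ2. The median log2 fold change against RANKL alone was -1.70 without surface proteins replicate 2 and -2.35 without surface proteins replicate 1. Surface proteins replicate 2 held 12.4% of its reads on the ribosomal RNA gene Rn45s, against 8.91% to 12% in the other 8, and the part of this in the order was not tested.

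**Figure D5:**
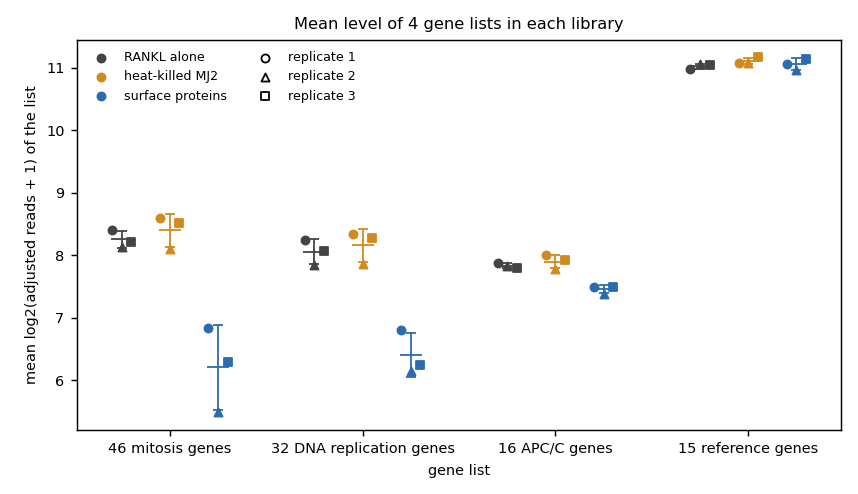
Mean log2(adjusted reads + 1) of 4 gene lists in each library, with replicates as symbols, groups as colours, and bars for the mean and SD of each group (n = 3). The surface proteins libraries lie at 5.49 to 6.83 for the 46 mitosis genes and at 8.10 or more in the other groups, and the reference genes lie between 10.96 and 11.17 throughout.

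Other genes of the same processes were taken from lists that hold none of the 46. Of 37 other spindle and cytokinesis genes 27 passed and were lower against RANKL alone, with a median of 25.1% of the RANKL alone level, and none was higher. They include Pbk, a mitotic kinase, at -3.39 (SE 0.28, adjusted p = 8.9e-04 in limma), Aspm, a spindle pole protein, at -3.24, and Sapcd2, a regulator of spindle orientation. Sapcd2 had -3.40 (SE 0.87, adjusted p = 0.031), but its surface proteins libraries held 13.7, 3.78 and 0.117 adjusted reads, so that it was tested through RANKL alone and the size of its drop is uncertain, at -4.29 to -2.43 with 1 library left out. With heat-killed MJ2 none of the 37 passed in limma, and 7 had an unadjusted p under 0.05, where 22.6% of all tested genes did. Of 32 other kinetochore and centromere genes 13 passed and were lower, led by Casc5 (the kinetochore scaffold Knl1) at -2.67, Apitd1 (Cenps) at -2.48 and Nsl1 of the Mis12 complex at -2.28. Nsl1 held 5.84, 4.74 and 4.53 adjusted reads with surface proteins, all under the limit of 10, so it too was tested only through the RANKL alone libraries. One was higher: Zw10, of the RZZ complex, which also works in membrane traffic in interphase, had log2 values of 7.00, 6.86 and 7.20 with RANKL alone, 8.45, 8.71 and 8.77 with heat-killed MJ2 and 9.22, 8.76 and 8.89 with surface proteins. Both treatments lay above RANKL alone without overlap, at log2 fold changes of 1.62 (SE 0.16, adjusted p = 0.0055) and 1.93 (SE 0.18, adjusted p = 0.0013).

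Of 16 other condensin and cohesin genes 7 passed and were lower, with a median log2 fold change of -0.70. Esco2, the acetyltransferase that locks cohesin in S phase, fell most at -3.50 (adjusted p = 0.0042 in limma) with 16.6, 7.62 and 3.44 adjusted reads left, Sgol2a had -2.29 and Ncapg2, of condensin II, -1.45. Of 16 genes of the anaphase-promoting complex and its regulators 3 passed, with a median of -0.22: its inhibitor Fbxo5 (Emi1) at -2.29, Cdc23 at -1.18, whose reads match those of Kif20a, and its G1 activator Fzr1 (Cdh1), which passed just inside the 2-fold limit. Without Cdc23 the count was 2 of 15. With heat-killed MJ2 none of either list passed in limma, and 3 and 1 had an unadjusted p under 0.05, where 22.6% of all tested genes did.

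DNA replication genes, which act earlier, in S phase, were also lower. Of 32 such genes 23 passed against RANKL alone and none was higher, with a median log2 fold change of -1.65. With heat-killed MJ2 none of the 32 passed in limma and 2 had an unadjusted p under 0.05, where 22.6% of all tested genes did. Mcm6, a subunit of the replicative helicase, had -3.17 (SE 0.31, adjusted p = 0.0016 in limma), Uhrf1, which maintains DNA methylation at the fork, -2.71, and Lig1, the ligase that joins Okazaki fragments, -2.46. The mean of the 32 log2 values was 8.06 ± 0.20 (SD, n = 3) with RANKL alone, 8.16 ± 0.26 with heat-killed MJ2 and 6.40 ± 0.35 with surface proteins. Of 15 reference genes none passed in limma in any comparison, although 8, 6 and 5 had an unadjusted p under 0.05 (surface proteins and heat-killed MJ2 against RANKL alone, then surface proteins against heat-killed MJ2), where 42.3%, 22.6% and 35.3% of all tested genes did. Their mean log2 value was 11.03 with RANKL alone, 11.11 with heat-killed MJ2 and 11.06 with surface proteins.

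Among 26 regulators of cell cycle transcription 7 passed and were lower in the surface proteins comparison, where the median of the list was -0.34. Foxm1, the activator of G2 and mitosis genes, had log2 values of 8.12, 7.88 and 8.18 with RANKL alone, 8.15, 7.71 and 8.43 with heat-killed MJ2 and 6.78, 5.89 and 6.54 with surface proteins. Mybl2 (B-Myb), its partner on the MuvB complex, had 7.57, 7.59 and 7.36, then 7.63, 6.49 and 7.69, then 5.78, 4.11 and 5.35. In both genes the surface proteins libraries lay below the other 6 and replicate 2 was the lowest of them. The log2 fold change against RANKL alone was -1.65 (SE 0.25, adjusted p = 0.0061 in limma) for Foxm1 and -2.43 (SE 0.42, adjusted p = 0.0089) for Mybl2, and with heat-killed MJ2 they were 0.04 and -0.24. E2f8 and E2f7, the repressors that close S phase, had -3.04 and -2.44 (E2f7 at 18.6, 1.86 and 10 adjusted reads with surface proteins, and -3.04 to -1.65 with 1 library left out), and E2f1, Tfdp2 and Rbl1 also passed. Lin9 and Lin54, core subunits of MuvB, did not, at 0.08 (adjusted p = 0.9) and 0.35 (adjusted p = 0.59), and Cdkn1a (p21), an inhibitor of cyclin-dependent kinases, had 0.84 (adjusted p = 0.0083), under the fold limit. Cdkn1a had 0.66 (SE 0.13, adjusted p = 0.043 in limma) with heat-killed MJ2, and 0.18 (adjusted p = 0.38) with surface proteins against heat-killed MJ2.

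Markers of cell state moved beside these genes. The summed level of 10 osteoclast markers was 20914 to 33120 adjusted reads with RANKL alone, 13868 to 16029 with heat-killed MJ2 and 5262 to 7864 with surface proteins. Of the 9 tested, 7 passed and were lower with surface proteins and 3 with heat-killed MJ2, among them Nfatc1, the osteoclast master regulator, at -3.09 and -1.12. The sum of 8 macrophage markers stayed between 18407 and 21478 adjusted reads in all libraries, although 4 of the 8 passed and were higher with surface proteins and Csf1r, the receptor for M-CSF, passed and was lower at -1.47, and with heat-killed MJ2 3 of the 8 passed and were higher and none was lower past the threshold. S100a8, a granulocyte and activated macrophage gene, was the one neutrophil marker of 4 to reach 10 adjusted reads, and the sum of the 4 was 0 to 0.112 adjusted reads with RANKL alone, 1900 to 2056 with heat-killed MJ2 and 113 to 209 with surface proteins, with Mpo and Elane under 1 in every library. The sum of 4 T cell markers, of which only Lck reached 10 adjusted reads, was 0.102 to 22.5 with RANKL alone, 14.5 to 36.8 with heat-killed MJ2 and 43.9 to 85.6 with surface proteins, and Cd3e and Cd2 were under 1 throughout. The sum of 4 fibroblast markers, of which Col1a1 and Dcn reached 10 adjusted reads, was 0.86 to 41.8 with RANKL alone, 9.8 to 27.6 with heat-killed MJ2 and 17.6 to 39.5 with surface proteins. The part of any of these in the result for the mitosis genes was not tested.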

How the data were processed

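Sequencing libraries from the 3′ end of mRNA (75 base single-end reads) were made from RAW264.7 cells, 3 for each of 3 groups, with groups and replicate numbers from the labels. Per the study's methods the authors applied quantile normalization. The submitters' processing notes name Bowtie2, bedtools and mm10, with no versions. The authors deposited log2 values with 3 decimals for 23282 gene rows, which appear to be log2(adjusted reads + 1). Low values between 0.5 and 3.5 adjusted reads lay within 0.25 of a whole number in 73.1% to 100% of cases per library, so the name is approximate, and reads without molecular identifiers are not independent molecules. Library totals differed (5930926 to 6503682 adjusted reads), so the deposited values are not plainly quantile normalized. The scaling that they carry is not known. No 2 libraries of the same group agreed within sampling noise.

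The deposited log2 values were fitted with limma 3.58.1 (lmFit and eBayes, R 4.3.3) on the 6 libraries of each comparison. The filter was 10 adjusted reads in at least 3 libraries, with Benjamini-Hochberg adjustment over the tested genes, and the threshold was 0.05 with a fold change of 2. The design had foreseen log2 values. Tables were made with Python 3.11.15, pandas 2.3.3 and numpy 2.4.6, and plots with matplotlib 3.10.9. Scripts were checked first on simulated data with known changes. Library values are given within each role group for the gene with the highest mean log2 value and those with the largest change in each comparison, and the other genes by their fold changes. In other lists up to 3 genes with the largest change past the threshold are named, with Foxm1 and Mybl2. Genes overlapping the 46, E2f1, Tfdp2, Rbl1, Lin9, Lin54, Cdkn1a and the single markers were named after their values were seen. The 46 genes, the lists and the tests were chosen with earlier results of these data known. Alternatives covered scaling, filter, constant, model, replicate block, threshold and leaving out each library.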

Additional observations from a re-analysis of the deposited data

How the results depend on the processing

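Surface proteins left 40 of the 46 genes past the threshold and lower against RANKL alone. The other settings gave 29 with no filter on low values and 37 to 43 under the alternatives of scaling, constant, model and threshold, and 24 to 40 when 1 library was left out, with 24 without RANKL alone replicate 1. Against heat-killed MJ2 the count was 42, with 18 under no filter, 39 to 44 under the others, and 8 to 39 with 1 library left out. The cause of these losses was not tested. All 46 log2 fold changes stayed below 0 in both comparisons in each fit (43 genes were tested where 10 adjusted reads were asked of every library), and none of the 46 passed with heat-killed MJ2 in any fit. The mean difference from RANKL alone over the 46 ranged from -2.36 to -1.70 with surface proteins when 1 library was left out and from 0.05 to 0.30 with heat-killed MJ2. The median log2 fold change of all tested genes lay between -0.07 and 0.03 under other scalings in the 3 comparisons, where it had been -0.01, -0.00 and 0.03.

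Same-numbered libraries correlated at 0.0179 to 0.106 in their deviations from the group means over all tested genes, and other pairs at -0.0755 to 0.0311. The numbers were not taken to pair the samples. Each of the 9 correlated best with its own number, and most of the 46 genes had replicate 2 lowest and replicate 1 highest in each group. Both are hints from the data that the numbers may pair the samples. The replicate block gave 37 of the 46 against RANKL alone, 39 against heat-killed MJ2 and 0 with heat-killed MJ2 against RANKL alone, and 289 in place of 461 of all genes in the last comparison.

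Over all tested genes, 1902 passed with surface proteins against RANKL alone, and 3163 by adjusted p alone. With heat-killed MJ2 461 passed, 267 with no filter, 799 by unadjusted p with the fold limit, and 189 to 334 with 1 library left out. Surface proteins against heat-killed MJ2 gave 1098, 1949 by adjusted p alone, and 342 to 1167 with 1 library left out.

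With heat-killed MJ2 the sign of 15 of the 46 log2 fold changes against RANKL alone turned in some fit, none of them past the threshold. Leaving out 1 library gave -0.15 to 0.09 for Mki67, -0.13 to 0.08 for Kif20a, -0.16 to 0.02 for Ncapd2, -0.10 to 0.20 for Aurka, -0.14 to 0.27 for Bub1b, -0.08 to 0.18 for Cenpk, -0.08 to 0.33 for Kif2c, -0.02 to 0.23 for Prc1, -0.07 to 0.21 for Top2a, -0.10 to 0.12 for Smc4, -0.00 to 0.47 for Ncaph, -0.29 to 0.46 for Cenph, -0.01 to 0.35 for Kif14, -0.45 to 0.17 for Kif22 and -0.22 to 0.06 for Kif23. With equal totals Mki67 had 0.01. The median 95% interval of the 46 log2 fold changes reached 0.51 to either side with heat-killed MJ2 and 0.98 with surface proteins, and smaller differences were mostly not detectable with 3 libraries a group.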
